A study of Homo sapiens with 12 samples.

Results

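The genes described here make or regulate mevalonate, cholesterol and dolichol. The set held 32 of the 27522 gene names on the arrays, chosen by name for their place in these pathways, and every probe whose accession leads to one of them in the RefSeq gene table was taken. That gave 40 of 34127 probes, because NUS1 and HSD17B7 each had 3 probes and LSS, INSIG2, SREBF1 and DHDDS each had 2. The 40 probes were well above background on all 12 arrays. Unless a probe is named, a value is that of the brightest probe of the gene.

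The values come from U2OS cells, a human osteosarcoma cell line, transfected with 20 nM of a control siRNA or of siRNA against DBP5, GLE1 or IPPK and cultured for 48 h. DBP5 is an RNA helicase at the cytoplasmic face of the nuclear pore, GLE1 is a protein that stimulates it, and IPPK makes inositol hexakisphosphate, a small molecule that works with GLE1. Cytoplasmic RNA was labelled and put on 1-colour Agilent arrays, 3 for each siRNA, and every slide held 1 array of each. All groups share the line, the transfection and the siRNA dose, the controls included, and the nuclear RNA of the same cells is not on these arrays.

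Cells build sterols and dolichol from the same start. Acetyl-CoA is turned into mevalonate and then into farnesyl diphosphate. From there squalene leads through lanosterol to cholesterol, while NUS1 and DHDDS together form the enzyme that lengthens farnesyl diphosphate into the polyprenol chain of dolichol, the lipid that carries sugars for N-glycosylation. SREBP2, the product of SREBF2, is a membrane-bound transcription factor that SCAP escorts out of the endoplasmic reticulum when sterols are low and that INSIG1 and INSIG2 hold back when sterols are high, and most enzymes of the sterol route are known targets of it. NUS1 is also known to bind and stabilise NPC2, a carrier of cholesterol in lysosomes. The question here is how the sterol branch and the dolichol branch moved in the cytoplasm after each knock-down.

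Promoter windows of 29 of the 32 genes are in the RefSeq table of promoters (GRCh38.p14, 250 bases before to 50 bases after a start site, 300 in all), and ACAT2, FDFT1 and SQLE are not. Of the 29 genes, 7 have several windows, and a gene was counted where any of its windows held the letters. SREBF2, at chr22:41832855-41833154 on the plus strand, is shown because it encodes the factor of the sterol branch. MSMO1, at chr4:165327419-165327718 on the plus strand, is shown as an enzyme of that branch whose RNA moved in opposite directions between knock-downs. NUS1, at chr6:117675219-117675518 on the plus strand, and DOLK, at chr9:128947554-128947853 on the minus strand, stand for the dolichol branch. Capitals mark 3 searched motifs, on either strand: TCACNCCAC, letters of the sterol regulatory element that SREBP binds, CACGTG, the E-box, and CCAAT, the box bound by NF-Y. No marked stretches overlap in these windows, each of which is written from upstream to downstream of its gene:
SREBF2: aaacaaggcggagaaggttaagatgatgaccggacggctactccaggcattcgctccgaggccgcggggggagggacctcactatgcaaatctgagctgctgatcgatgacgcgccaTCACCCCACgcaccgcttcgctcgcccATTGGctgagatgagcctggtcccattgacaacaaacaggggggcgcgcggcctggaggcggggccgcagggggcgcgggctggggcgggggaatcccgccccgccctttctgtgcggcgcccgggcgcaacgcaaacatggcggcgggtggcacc
MSMO1: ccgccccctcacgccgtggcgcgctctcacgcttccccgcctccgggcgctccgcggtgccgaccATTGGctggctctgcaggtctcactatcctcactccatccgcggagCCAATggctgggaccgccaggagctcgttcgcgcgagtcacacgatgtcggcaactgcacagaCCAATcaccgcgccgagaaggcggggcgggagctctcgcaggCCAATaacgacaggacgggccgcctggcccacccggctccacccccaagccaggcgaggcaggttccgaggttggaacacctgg
NUS1: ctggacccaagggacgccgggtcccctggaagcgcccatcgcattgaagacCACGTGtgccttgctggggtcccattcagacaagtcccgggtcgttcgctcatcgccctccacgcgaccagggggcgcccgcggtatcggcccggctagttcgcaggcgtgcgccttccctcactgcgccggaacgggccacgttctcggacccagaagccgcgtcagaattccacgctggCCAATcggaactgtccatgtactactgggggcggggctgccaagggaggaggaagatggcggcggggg
DOLK: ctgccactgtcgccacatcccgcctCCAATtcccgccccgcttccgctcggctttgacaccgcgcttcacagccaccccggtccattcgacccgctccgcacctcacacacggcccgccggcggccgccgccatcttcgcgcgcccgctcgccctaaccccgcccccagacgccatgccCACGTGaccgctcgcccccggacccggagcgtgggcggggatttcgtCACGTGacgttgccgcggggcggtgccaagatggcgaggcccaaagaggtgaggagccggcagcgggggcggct

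TCACNCCAC occurred in 1.13% of all 35116 promoter windows and, among the 29 genes, in SREBF2 alone, at position -133 from the start site. CCAAT occurred in 34.6% of all windows, in 13 of the 15 sterol branch genes that have a window and in 2 of the 4 dolichol branch genes, NUS1 (position -18) and DOLK (position -225). MSMO1 held it at 4 places. CACGTG occurred in 7.26% of all windows, in 2 of the 15 sterol branch genes (LSS and SC5D) and in 3 of the 4 dolichol branch genes: NUS1 at -199, DHDDS at -204 and -167, and DOLK at -71 and -24. The shares are per window, while a gene counts if any of its windows matches, which favours genes with several windows. These are matches of letters in short windows, and binding was not measured.

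On each array 70.9% to 77.7% of the probes were well above background, with the lowest shares in the IPPK group. DDX19B, the gene of DBP5, was at 0.0643 ± 0.00121 of control (ratio, SD, n = 3) after its own knock-down, GLE1 was at 0.102 ± 0.0274 and IPPK at 0.186 ± 0.00815 after theirs. DDX19B was also at 0.490 of control after GLE1 knock-down, and IPPK at 0.420 after DBP5 knock-down. Of the markers, 9 of 11 mesenchymal and osteoblast genes and 4 of 5 epithelial genes had a probe well above background on all arrays, and COL1A2, IBSP and CDH1 had none. The summed intensity of the epithelial genes was 151000 to 168000 on the control arrays, 118000 to 140000 after DBP5, 110000 to 114000 after GLE1 and 88900 to 95600 after IPPK knock-down. Its genes did not move as one, since KRT19 rose after GLE1 knock-down (log2 fold change 0.84; limma, adjusted p = 7.1e-06) while KRT18 fell (-0.57, 2.9e-05). CDH1 rose after all 3 knock-downs (0.94, 3.30 and 1.30; limma, adjusted p = 0.00177, 1.2e-07 and 2.0e-04). After IPPK knock-down EPCAM, KRT8, KRT18 and KRT19 fell (-0.92, -0.92, -0.78 and -0.51; limma, adjusted p = 0.00547, 1.3e-05, 3.8e-06 and 3.8e-04). The sum of the mesenchymal genes was 225000 to 294000, 282000 to 350000, 280000 to 297000 and 237000 to 268000 in the same order of groups. These genes did not move as one either. COL1A1 fell by 1.99 and RUNX2 by 0.70 on the log2 scale after IPPK knock-down (limma, adjusted p = 1.8e-08 and 3.5e-04), while BGLAP rose in all 3 knock-downs (1.29, 0.82 and 0.71) and COL5A1 after DBP5 (0.54) and GLE1 (1.12). Sums of blood and endothelial genes stayed between 255 and 402 on all arrays. The nuclear-retained RNAs MALAT1 and KCNQ1OT1 summed to 5510 to 5860 in control, 7760 to 9280 after DBP5, 9770 to 9950 after GLE1 and 6110 to 6710 after IPPK knock-down. MALAT1 was lower by 1.08 on the log2 scale after IPPK knock-down (limma, adjusted p = 0.0035) and KCNQ1OT1 was higher after DBP5 (log2 fold change 0.64), GLE1 (0.84) and IPPK knock-down (0.22). The part of these shifts in the results below was not tested, and on bulk RNA a fall in a transcript per cell cannot be told apart from fewer cells that carry it.

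After DBP5 knock-down, 19 of the 32 genes were higher and 8 lower than control by limma at an adjusted p of 0.05, where 26.8% of the 20818 genes tested were higher and 27.5% lower (54.3% in all). GLE1 knock-down left 14 higher and 7 lower, against 30.6% and 31.5% of all genes (together 62.0%). IPPK knock-down left 11 higher and 12 lower, against 27.3% and 28.0% (together 55.4%). Over the 32 genes the median log2 fold change was 0.42 (DBP5), 0.14 (GLE1) and -0.02 (IPPK), and that of all genes tested -0.02, 0.01 and -0.03. Each of the 27, 21 and 23 genes called in the 3 comparisons moved in 1 direction on all 3 slides. The slide differences use the same arrays as the calls and are no separate support for them. By the methods' t-test, which pairs the arrays by slide, the counts were 10 higher and 3 lower (DBP5), 12 and 6 (GLE1) and 6 and 8 (IPPK). The shares of all genes given above are those of limma. No such share is given for the test paired by slide, so its counts have no background to be read against. The methods describe 3 independent array experiments, and the labels do not say that the replicates were separate cultures. The p-values measure the spread between these arrays.

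The comparisons with control share the control arrays, and the knock-downs were therefore compared with each other too. GLE1 against DBP5 knock-down left 9 genes higher and 12 lower (26.5% and 28.0% of all genes, together 54.6%), and GLE1 against IPPK left 15 higher and 8 lower (29.4% and 30.8%, together 60.2%). DBP5 against IPPK left 20 of the 32 higher and 7 lower, where 23.8% and 25.1% of all genes were (together 48.9%). The median log2 difference of the set was 0.07, 0.19 and 0.28 in these 3 comparisons.

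**Figure D1:**
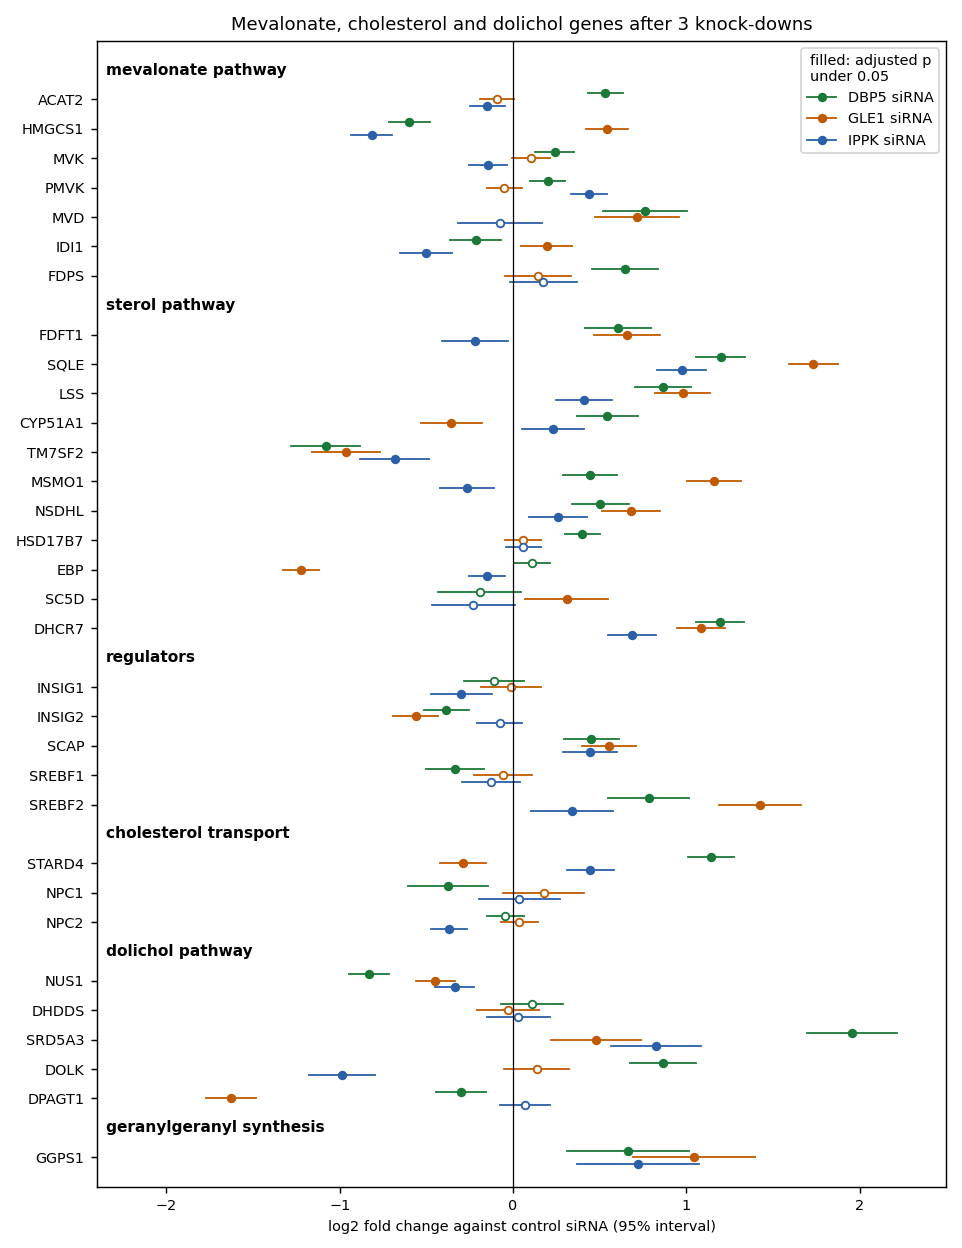
Log2 fold change of each of the 32 genes against control siRNA (x axis) after DBP5 (green), GLE1 (orange) and IPPK (blue) knock-down, with its 95% interval from limma, genes grouped by role. Filled points are past an adjusted p of 0.05. SQLE, DHCR7 and LSS lie to the right in all 3 colours, TM7SF2 and NUS1 to the left, and genes such as HMGCS1, EBP, STARD4, DOLK and DPAGT1 have colours on both sides or far apart.

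The mevalonate pathway has 7 genes in the set, and its counts depend on the test. By limma, 5 rose and 2 fell after DBP5 knock-down, 3 rose and 0 fell after GLE1, and 1 rose and 4 fell after IPPK knock-down. Of all genes tested, 26.8% rose and 27.5% fell (DBP5), 30.6% and 31.5% (GLE1) and 27.3% and 28.0% (IPPK), so 3 of 7 higher after GLE1 knock-down is near the share of all genes. By the methods' t-test, which pairs the arrays by slide, 2 of the 7 were higher and 1 lower (DBP5), 2 and 0 (GLE1) and 1 and 3 (IPPK). These shares of all genes are those of limma and do not apply to the counts paired by slide. The median log2 fold change of the 7 genes was 0.24, 0.14 and -0.14.

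HMGCS1 makes HMG-CoA, the substrate from which mevalonate is formed. Its log2 intensity was 12.94, 12.88 and 13.01 on the control arrays, 12.38, 12.33 and 12.33 after DBP5, 13.50, 13.54 and 13.42 after GLE1, and 12.19, 12.12 and 12.08 after IPPK knock-down. All GLE1 siRNA arrays lay above all control arrays and all DBP5 and IPPK siRNA arrays below them, with no overlap between any pair of groups. HMGCS1 thus had a ratio to control of 1.46 ± 0.0596 (SD, n = 3) in GLE1 knock-down (limma, adjusted p = 7.0e-06), 0.660 ± 0.0145 after DBP5 (5.1e-06) and 0.568 ± 0.0209 after IPPK (4.7e-07). Between GLE1 and IPPK knock-down the log2 difference was 1.36 ± 0.05 (SE, adjusted p = 1.2e-08).

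IDI1, the isomerase that makes the starter unit of prenyl chains, moved in the same pattern at smaller size. Its log2 intensity was 11.55, 11.58 and 11.60 in control, 11.49, 11.31 and 11.29 after DBP5, 11.83, 11.79 and 11.70 after GLE1, and 11.15, 11.06 and 11.02 after IPPK knock-down. The log2 fold changes were -0.22, 0.19 and -0.50 (limma, adjusted p = 0.0179, 0.0261 and 8.4e-05). The call after DBP5 knock-down was lost without control array 3 (adjusted p = 0.0523), DBP5 array 2 (0.0625) or DBP5 array 3 (0.066), and that after GLE1 knock-down without control array 1 (0.074) or 2 (0.0551) or GLE1 array 1 (0.0877) or 2 (0.07). The former was also lost with normexp (0.142), the authors' processed values (0.0974) and the 6 arrays compared alone (0.0534), and the latter with scaling to the 75th percentile (0.0625), normexp (0.0676) and the authors' processed values (0.102). IDI1 has 3 pseudogenes in the RefSeq table, and its probe may not tell the copies apart.

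ACAT2, which joins acetyl-CoA units, and FDPS, which makes farnesyl diphosphate, rose after DBP5 knock-down. ACAT2 read 14.13, 14.18 and 14.17 in control and 14.64, 14.70 and 14.74 after DBP5 knock-down, a ratio of 1.45 ± 0.051 (SD, n = 3; limma, adjusted p = 3.5e-06). After IPPK knock-down it was at 0.902 of control (0.0165), a call that was lost without IPPK array 1 (0.0553), with normexp (0.217) and with the authors' processed values (0.127). After GLE1 it was at 0.938 (0.0998; called at 0.0453 with scaling to the 75th percentile). FDPS was at 1.56 ± 0.0621 after DBP5 knock-down (9.6e-05). FDPS was at 1.10 ± 0.119 after GLE1 (0.181) and at 1.13 ± 0.106 after IPPK knock-down (0.115), and with the slide as a replicate block the latter was called (0.047). FDPS has 10 pseudogenes in the RefSeq table.

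MVK, PMVK and MVD act in sequence to turn mevalonate into isopentenyl diphosphate. MVD, the decarboxylase, read 10.82, 10.78 and 10.79 in control, 11.31, 11.58 and 11.79 after DBP5 and 11.67, 11.47 and 11.40 after GLE1 knock-down. Both knock-downs lay above control on every array, with ratios of 1.70 ± 0.28 and 1.64 ± 0.168 (SD, n = 3; limma, adjusted p = 0.00015 and 0.00019), and MVD was at 0.949 ± 0.0164 after IPPK knock-down (0.598). PMVK was at 1.36 ± 0.018 after IPPK (1.6e-05) and 1.15 ± 0.0176 after DBP5 knock-down (0.00406), and at 0.966 after GLE1 (0.387). MVK was at 1.18 ± 0.0481 after DBP5 (0.00191), at 1.07 after GLE1 (0.0945) and at 0.906 ± 0.0141 after IPPK knock-down (0.0311). In the methods' t-test MVD (0.0863), PMVK (0.0583) and MVK (0.0751) missed the threshold after DBP5 knock-down, and MVK after IPPK (0.0807). The limma call of MVK after IPPK knock-down was lost without control array 1 (0.073) or 2 (0.0867) or IPPK array 1 (0.0509), 2 (0.099) or 3 (0.0666).

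The sterol pathway proper, from squalene to cholesterol, has 11 genes in the set. After DBP5 knock-down 8 rose and 1 fell, after GLE1 7 rose and 3 fell, and after IPPK 5 rose and 4 fell. Of all genes tested, 26.8% rose and 27.5% fell (DBP5), 30.6% and 31.5% (GLE1) and 27.3% and 28.0% (IPPK). By the methods' t-test 5 of the 11 were higher and 1 lower (DBP5), 7 and 3 (GLE1) and 3 and 2 (IPPK). The shares of all genes are again those of limma, and the counts paired by slide cannot be set against them. The median log2 fold change of the 11 genes was 0.50, 0.66 and 0.06.

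SQLE, the epoxidase that opens the route from squalene, had the largest rise of the 11 genes after each knock-down. After DBP5 knock-down its log2 fold change (1.199) was barely above that of DHCR7 (1.194). The log2 intensity of SQLE was 12.91, 12.93 and 12.86 in control, 14.23, 14.01 and 14.06 after DBP5, 14.63, 14.65 and 14.62 after GLE1, and 13.95, 13.84 and 13.83 after IPPK knock-down. The 4 groups did not overlap, with GLE1 highest, then DBP5, IPPK and control. Its ratios to control were 2.30 ± 0.194 (DBP5), 3.32 ± 0.039 (GLE1) and 1.96 ± 0.0924 (IPPK; SD, n = 3; limma, adjusted p = 1.2e-07, 4.6e-09 and 4.4e-07). The log2 difference was 0.53 between GLE1 and DBP5 and 0.23 between DBP5 and IPPK knock-down (adjusted p = 4.0e-05 and 0.013).

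DHCR7, the reductase of the last step to cholesterol, read 14.45, 14.33 and 14.38 in control, 15.54, 15.65 and 15.54 after DBP5, 15.34, 15.55 and 15.51 after GLE1, and 15.09, 15.07 and 15.06 after IPPK knock-down. All knock-down arrays lay above control, and the IPPK siRNA arrays lay between control and the other two. Ratios were 2.29 ± 0.106, 2.12 ± 0.155 and 1.61 ± 0.0195 (SD, n = 3; limma, adjusted p = 1.1e-07, 1.1e-07 and 5.2e-06). GLE1 and DBP5 knock-down overlapped, and their log2 difference of -0.11 missed the threshold (adjusted p = 0.161).

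LSS, which closes squalene epoxide into lanosterol, has 2 probes that parted after IPPK knock-down. The brighter probe read 11.71, 11.66 and 11.58 in control, 12.35, 12.57 and 12.63 after DBP5, 12.67, 12.58 and 12.64 after GLE1, and 12.10, 12.04 and 12.04 after IPPK knock-down. The dimmer probe read 8.57, 8.40 and 8.54, then 9.01, 9.28 and 9.22, then 9.21, 9.12 and 9.20, then 7.39, 7.68 and 7.76 in the same order. Both were above control on every array after DBP5 and GLE1 knock-down, with log2 fold changes of 0.87 and 0.98 on the brighter and 0.67 and 0.67 on the dimmer probe. After IPPK knock-down the brighter probe rose by 0.41 (limma, adjusted p = 0.00064) and the dimmer was at -0.89 (3.2e-05), so the direction of LSS there depends on the probe.

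FDFT1, the squalene synthase at the branch point, rose after DBP5 (ratio 1.52 ± 0.0768, SD, n = 3; limma, adjusted p = 0.00014) and GLE1 knock-down (1.58 ± 0.142, 5.7e-05). It read 13.62, 13.45 and 13.60 in control and 13.48, 13.25 and 13.27 after IPPK knock-down, groups that overlap. The ratio there was 0.857 ± 0.0765 (0.0484), a call that was lost in 9 of the 12 fits that leave out 1 array, with adjusted p from 0.0509 to 0.153, and held without control array 2, GLE1 array 1 or IPPK array 1. It was also lost with no filter on dim probes (0.0694) and with the 6 arrays compared alone (0.0691).

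MSMO1 and NSDHL remove methyl groups from the sterol ring. MSMO1 read 10.28, 10.23 and 10.20 in control, 10.72, 10.81 and 10.52 after DBP5, 11.35, 11.43 and 11.40 after GLE1, and 10.03, 9.94 and 9.95 after IPPK knock-down. No groups overlapped, and GLE1 and DBP5 knock-down lay above control with IPPK below. Ratios were 1.36 ± 0.135, 2.23 ± 0.0641 and 0.832 ± 0.0277 (SD, n = 3; limma, adjusted p = 0.00029, 1.5e-07 and 0.00779). NSDHL rose in all 3 knock-downs, by 0.50, 0.68 and 0.26 on the log2 scale (0.0002, 1.5e-05 and 0.0128), the last at 0.0502 without control array 3 and 0.0501 without IPPK array 1.

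**Figure D2:**
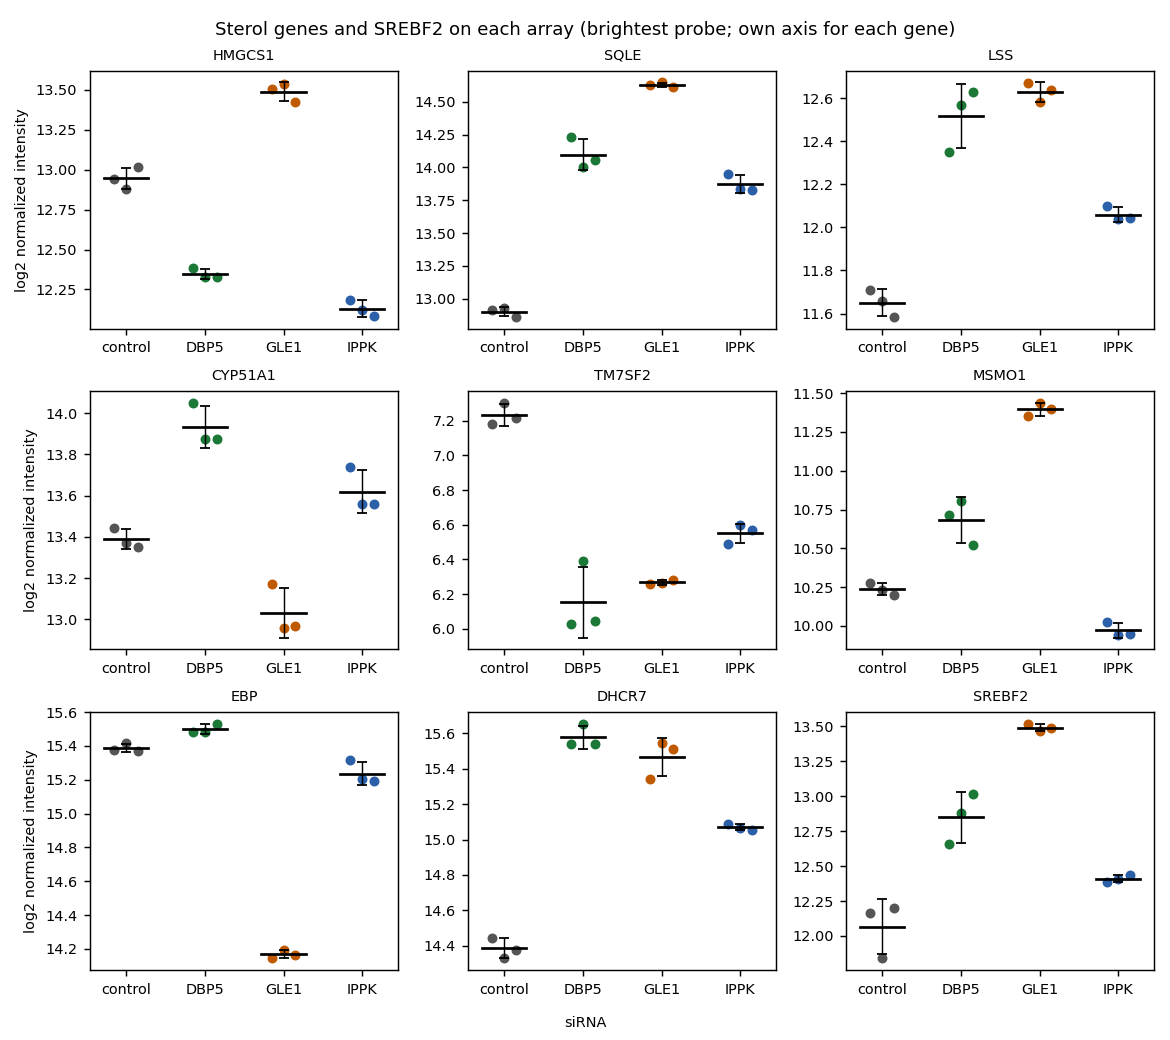
Log2 normalized intensity (y axis, its own range for each gene) of 8 sterol branch genes and SREBF2 on the 3 arrays of each siRNA group (x axis), with points for arrays, long bars for means and whiskers for the SD. EBP drops far below the other groups after GLE1 knock-down, from 15.38, 15.42 and 15.37 to 14.15, 14.19 and 14.16, while SQLE and DHCR7 are above control in all 3 knock-downs.

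EBP, the isomerase that shifts a double bond in the ring, stood apart in GLE1 knock-down. It read 15.38, 15.42 and 15.37 in control, 15.48, 15.49 and 15.53 after DBP5, 14.15, 14.19 and 14.16 after GLE1, and 15.32, 15.20 and 15.19 after IPPK knock-down. The GLE1 siRNA arrays were far below all others. The ratio to control was 0.429 ± 0.00701 (SD, n = 3; limma, adjusted p = 6.4e-09), and GLE1 differed from DBP5 by -1.33 and from IPPK by -1.07 on the log2 scale (8.5e-09 and 2.2e-08). After DBP5 knock-down EBP was at 1.08 (0.0689), and was called with quantile normalization (0.0352) and without IPPK array 1 (0.0434). After IPPK it was at 0.900 (0.0177), a call lost without control array 2 (0.054) or IPPK array 2 (0.0699) or 3 (0.0747) and with the 6 arrays compared alone (0.0528).

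CYP51A1, the demethylase that acts on lanosterol, also went in opposite directions. Its log2 intensity was 13.44, 13.37 and 13.35 in control, 14.05, 13.87 and 13.87 after DBP5, 13.17, 12.96 and 12.97 after GLE1, and 13.74, 13.56 and 13.56 after IPPK knock-down. DBP5 and IPPK knock-down lay above control on every array and GLE1 below. Log2 fold changes were 0.54, -0.36 and 0.23 (limma, adjusted p = 0.00018, 0.00257 and 0.0302), and GLE1 differed from DBP5 knock-down by -0.90 ± 0.08 (SE, 4.4e-06). Its call in the IPPK group was lost without control array 2 (0.0736) or 3 (0.086) or IPPK array 1 (0.109), and CYP51A1 has 3 pseudogenes in the RefSeq table.

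TM7SF2, a sterol reductase of the step after CYP51A1, was lower after every knock-down. It read 7.18, 7.30 and 7.22 in control, 6.03, 6.39 and 6.04 after DBP5, 6.25, 6.27 and 6.28 after GLE1, and 6.49, 6.60 and 6.57 after IPPK knock-down. All control arrays were above all others. Ratios were 0.472 ± 0.0699, 0.512 ± 0.00491 and 0.623 ± 0.0244 (SD, n = 3; limma, adjusted p = 2.7e-06, 3.9e-06 and 7.5e-05).

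HSD17B7, a ketoreductase of sterol demethylation, rose after DBP5 knock-down on all 3 of its probes, by 0.40, 0.31 and 0.23 on the log2 scale (limma, adjusted p = 2.9e-05, 0.00263 and 0.013). HSD17B7 has 2 pseudogenes in the RefSeq table. After GLE1 and IPPK knock-down none of the 3 probes passed, with log2 fold changes from -0.10 to 0.06. In GLE1 knock-down SC5D, a sterol desaturase, had a ratio to control of 1.24 ± 0.0986 (SD, n = 3; 0.0288). That call was lost without control array 1 (0.056), 2 (0.0547) or 3 (0.0793) or GLE1 array 2 (0.0811) or 3 (0.0944), with scaling to the 75th percentile (0.0609) and with the authors' processed values (0.0745). SC5D was at 0.875 after DBP5 (0.164; called at 0.0371 without DBP5 array 1) and 0.852 after IPPK knock-down (0.0951). The latter was called with scaling to the 75th percentile (0.0476), quantile normalization (0.0483), the 6 arrays compared alone (0.0143) and without DBP5 array 3 (0.0197).

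Of the 5 regulators, SREBF2 and SCAP rose after all 3 knock-downs. SREBF2 read 12.17, 11.84 and 12.20 in control, 12.65, 12.88 and 13.02 after DBP5, 13.52, 13.47 and 13.49 after GLE1, and 12.39, 12.41 and 12.44 after IPPK knock-down. No groups overlapped, and control array 2 was the lowest of all. Ratios were 1.72 ± 0.216, 2.68 ± 0.0476 and 1.27 ± 0.0221 (SD, n = 3; limma, adjusted p = 0.0001, 7.4e-07 and 0.0185). Without control array 2 the log2 fold change after IPPK knock-down went from 0.34 to 0.23 and lost its call (0.0622), as it did without IPPK array 3 (0.0519). In the methods' t-test, which pairs the arrays by slide, SREBF2 missed the threshold after DBP5 (0.0925) and IPPK knock-down (0.154), and SCAP after DBP5 (0.0762).

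SREBF2 differed between every pair of knock-downs, by 0.64 on the log2 scale for GLE1 against DBP5, 1.08 for GLE1 against IPPK and 0.44 for DBP5 against IPPK (limma, adjusted p = 0.00042, 7.3e-06 and 0.00558). SCAP had ratios to control of 1.37 ± 0.127 (DBP5), 1.47 ± 0.059 (GLE1) and 1.36 ± 0.033 (IPPK; SD, n = 3; adjusted p = 0.00029, 4.8e-05 and 0.00032). The log2 differences of SCAP between the same pairs of knock-downs were 0.10, 0.11 and 0.01, and none passed the threshold.

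INSIG1, a sterol sensor's anchor and itself a known SREBP2 target, was at 0.926 after DBP5 and 0.992 after GLE1 knock-down (limma, adjusted p = 0.268 and 0.914) and fell to 0.813 ± 0.0062 after IPPK knock-down (SD, n = 3; 0.00777). INSIG2 has 2 probes that oppose each other. The brighter read 10.97, 11.01 and 10.90 in control and 10.39, 10.41 and 10.39 after GLE1 knock-down, a log2 fold change of -0.56 (1.0e-05). The dimmer read 7.83, 7.89 and 7.75 and then 8.89, 9.02 and 9.03, a rise of 1.15 (8.7e-08). After DBP5 knock-down the probes gave -0.39 and 0.24 and after IPPK -0.08 and 0.23, so no direction for INSIG2 holds on both.

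SREBF1, which encodes the SREBP of fatty acid synthesis, was at 0.791 ± 0.0703 after DBP5 knock-down on its brighter probe (SD, n = 3; limma, adjusted p = 0.00303) and passed in no other knock-down. Its dimmer probe gave log2 fold changes of 0.11, 0.31 and 0.16, of which that after GLE1 knock-down passed (0.00481).

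Of the 3 cholesterol carriers, STARD4, a cytosolic carrier and known SREBP2 target, had the widest spread between groups. It read 11.76, 11.90 and 11.72 in control, 13.02, 12.92 and 12.87 after DBP5, 11.50, 11.47 and 11.55 after GLE1, and 12.22, 12.24 and 12.27 after IPPK knock-down. DBP5 and IPPK knock-down lay above control and GLE1 below, on every array. Ratios were 2.21 ± 0.119, 0.819 ± 0.0229 and 1.36 ± 0.0233 (SD, n = 3; limma, adjusted p = 1.2e-07, 0.00157 and 9.6e-05), and GLE1 differed from DBP5 knock-down by -1.43 on the log2 scale (2.4e-08).

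NPC1 and NPC2 pass cholesterol out of lysosomes. NPC1 was at 0.770 ± 0.0631 after DBP5 knock-down (SD, n = 3; limma, adjusted p = 0.0106), at 1.13 ± 0.183 after GLE1 (0.171) and at 1.03 after IPPK (0.802). Without GLE1 array 1, NPC1 was called higher after GLE1 knock-down (log2 fold change 0.31, 0.0049). NPC2, the partner of NUS1, read 16.03, 16.04 and 16.08 in control and 15.65, 15.65 and 15.75 after IPPK knock-down, a ratio of 0.774 ± 0.0321 (7.0e-05). It was at 0.970 after DBP5 and 1.03 after GLE1 knock-down (0.484 and 0.549).

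NUS1 was lower after each knock-down on 2 of its 3 probes, most after DBP5. The brightest probe read 11.80, 11.74 and 11.75 in control, 11.00, 10.89 and 10.90 after DBP5, 11.33, 11.26 and 11.36 after GLE1, and 11.46, 11.37 and 11.44 after IPPK knock-down. Every knock-down array was below every control array, and the DBP5 siRNA arrays were below all others. Ratios were 0.562 ± 0.0246, 0.733 ± 0.0261 and 0.791 ± 0.0272 (SD, n = 3; limma, adjusted p = 3.4e-07, 2.1e-05 and 0.00023), and within slides the log2 differences were -0.79 to -0.85, -0.39 to -0.49 and -0.31 to -0.37.

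The middle probe of NUS1 gave nearly the same picture. It read 10.92, 11.07 and 10.99 in control, 10.18, 10.07 and 10.13 after DBP5, 10.37, 10.48 and 10.51 after GLE1, and 10.69, 10.60 and 10.57 after IPPK knock-down. The groups again did not overlap, with ratios of 0.549 ± 0.0205, 0.689 ± 0.0347 and 0.772 ± 0.035 (SD, n = 3; limma, adjusted p = 8.8e-07, 1.9e-05 and 0.00039).

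The dimmest probe of NUS1 did not. It read 10.86, 10.90 and 10.84 in control, 8.71, 8.81 and 8.56 after DBP5, 11.02, 11.20 and 11.18 after GLE1, and 10.73, 11.07 and 11.08 after IPPK knock-down. On this probe DBP5 knock-down fell to 0.222 ± 0.0188 of control (SD, n = 3; limma, adjusted p = 5.5e-08), GLE1 was above control at 1.20 ± 0.0821 (0.0442) and IPPK overlapped it at 1.07 ± 0.144 (0.483). All 3 probes carry the same NUS1 accession, and the place of each on the transcript was not used here. NUS1 has 4 pseudogenes in the RefSeq table. The fall after DBP5 knock-down thus holds on 3 of 3 probes and the falls after GLE1 and IPPK on 2.

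**Figure D3:**
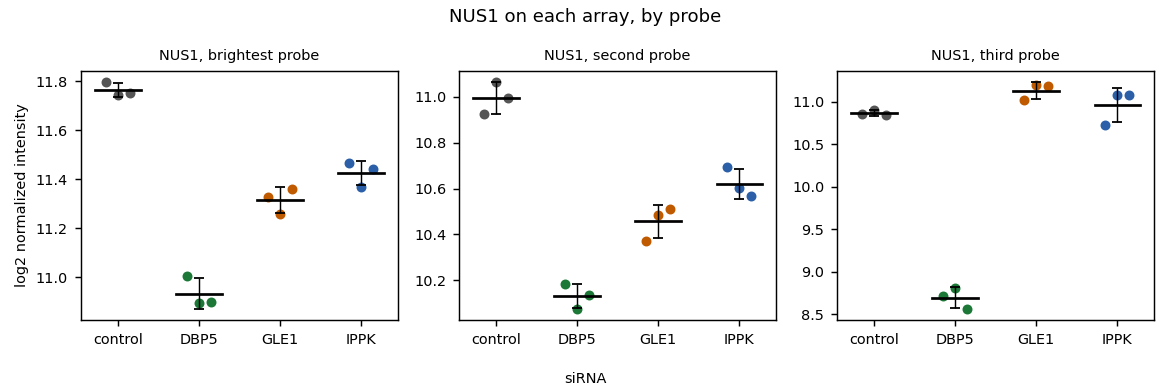
Log2 normalized intensity (y axis, its own range for each probe) of the 3 NUS1 probes on each array by siRNA group (x axis), with points for arrays, long bars for means and whiskers for the SD. The brightest and middle probes have means that step down from control through IPPK and GLE1 to DBP5 knock-down, and the dimmest probe is low after DBP5 knock-down alone.

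DBP5 knock-down lowered NUS1 more than the others did. On the brightest probe GLE1 was above DBP5 knock-down by 0.38 ± 0.05 on the log2 scale (SE; limma, adjusted p = 9.4e-05) and DBP5 was below IPPK by 0.49 ± 0.05 (2.1e-05). GLE1 and IPPK knock-down differed by -0.11 (0.0856), while the middle probe put GLE1 lower (-0.16, 0.0378) and the dimmest probe gave 0.17 (0.175).

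DHDDS, the partner of NUS1 in the same enzyme, was not called on its brighter probe in any knock-down. It read 9.06, 9.00 and 9.16 in control, 9.04, 9.20 and 9.32 after DBP5, 9.08, 9.06 and 9.00 after GLE1, and 8.98, 9.17 and 9.17 after IPPK knock-down, with all groups overlapping. The 95% intervals of its log2 fold changes ran from -0.07 to 0.29 after DBP5, -0.21 to 0.15 after GLE1 and -0.15 to 0.21 after IPPK knock-down. The dimmer probe was higher after DBP5 (log2 fold change 0.18; limma, adjusted p = 0.0391) and GLE1 knock-down (0.42; 0.00027) and at 0.05 after IPPK (0.583).

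SRD5A3, a reductase of dolichol synthesis, had the largest rise of the 32 genes after DBP5 knock-down. It was also the dimmest of them, at a mean log2 intensity of 5.96 over the arrays. It read 4.99, 5.35 and 5.09 in control, 7.13, 6.92 and 7.25 after DBP5, 5.55, 5.57 and 5.75 after GLE1, and 6.06, 5.84 and 6.01 after IPPK knock-down. The 4 groups did not overlap. Ratios were 3.88 ± 0.453, 1.39 ± 0.113 and 1.77 ± 0.144 (SD, n = 3; limma, adjusted p = 2.6e-07, 0.00421 and 0.00013). SRD5A3 has 1 pseudogene in the RefSeq table.

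DOLK, the kinase that makes dolichol phosphate, went opposite ways after DBP5 and IPPK knock-down. It read 9.62, 9.72 and 9.75 in control, 10.48, 10.61 and 10.59 after DBP5, 9.65, 9.87 and 9.96 after GLE1, and 8.59, 8.76 and 8.77 after IPPK knock-down. DBP5 siRNA arrays were above and IPPK siRNA arrays below all others, while GLE1 overlapped control. Ratios were 1.82 ± 0.0823, 1.10 ± 0.119 and 0.505 ± 0.0345 (SD, n = 3; limma, adjusted p = 1.0e-05, 0.197 and 3.5e-06). DBP5 differed from IPPK knock-down by 1.85 on the log2 scale (8.3e-08). The rise after GLE1 knock-down passed with the slide as a replicate block (log2 fold change 0.14, 0.04) and without GLE1 array 1 (0.22, 0.0284).

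DPAGT1 puts the first sugar on dolichol phosphate. Its log2 intensity was 10.87, 10.90 and 10.92 in control, 10.70, 10.59 and 10.50 after DBP5, 9.17, 9.26 and 9.37 after GLE1, and 10.99, 10.92 and 10.98 after IPPK knock-down. The GLE1 siRNA arrays were far below the others. Ratios were 0.812 ± 0.0553, 0.323 ± 0.0226 and 1.05 ± 0.0265 (SD, n = 3; limma, adjusted p = 0.00249, 7.8e-09 and 0.423). On the brightest probe of each gene this fall was the largest of the 32 genes in any comparison with control (the dimmest NUS1 probe fell further after DBP5 knock-down), and GLE1 differed from IPPK by -1.70 on the log2 scale (9.2e-09).

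**Figure D4:**
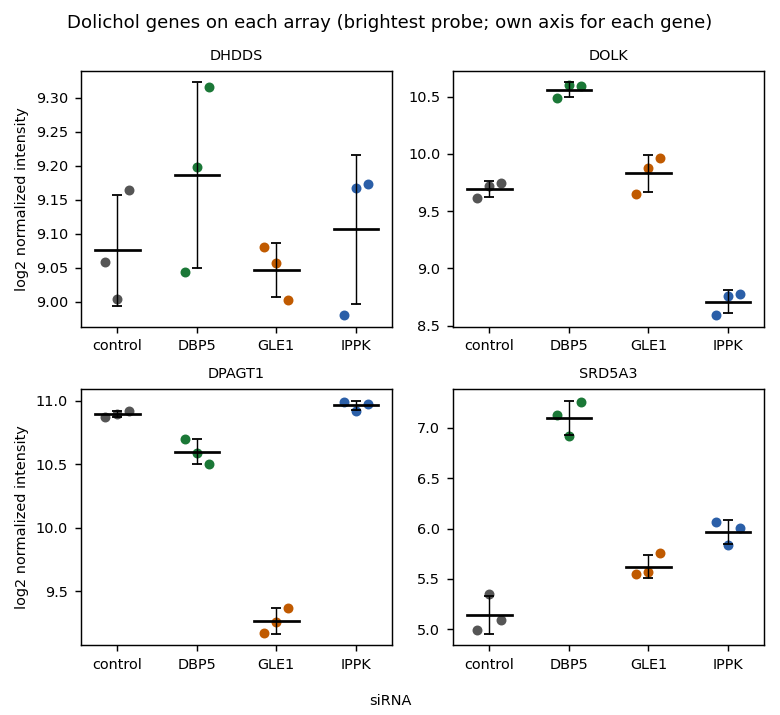
Log2 normalized intensity (y axis, its own range for each gene) of DHDDS, DOLK, DPAGT1 and SRD5A3 on each array by siRNA group (x axis), with points for arrays, long bars for means and whiskers for the SD. DHDDS overlaps in all groups, DOLK is high after DBP5 and low after IPPK knock-down, DPAGT1 is low after GLE1 knock-down, and SRD5A3 is above control in all 3.

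Set side by side, the sterol branch had more genes higher than lower after DBP5 and GLE1 knock-down, while the genes of the dolichol branch had no direction in common. Of the 18 sterol branch enzymes, 13 rose and 3 fell after DBP5, 10 rose and 3 fell after GLE1, and 6 rose and 8 fell after IPPK knock-down. By the methods' t-test 7 of the 18 were higher and 2 lower (DBP5), 9 and 3 (GLE1) and 4 and 5 (IPPK). Of the 4 dolichol branch genes (NUS1, DHDDS, DOLK and DPAGT1), 1 rose and 2 fell, then 0 rose and 2 fell, then 0 rose and 2 fell. By limma, 26.8%, 30.6% and 27.3% of all genes tested were higher and 27.5%, 31.5% and 28.0% lower. With 4 genes, a limma count of 2 lies about 1 gene above that share. For the test paired by slide the share of all genes is not given here. Whether its counts lie above or below that share is therefore not known. Median log2 fold changes were 0.47, 0.25 and -0.11 for the sterol branch and -0.09, -0.24 and -0.15 for the dolichol branch.

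The per-array means of the branches, relative to the control mean of each gene, spread little between arrays. For the sterol branch they were 0.34, 0.35 and 0.33 after DBP5, 0.35, 0.31 and 0.28 after GLE1, and 0.04, -0.02 and -0.02 after IPPK knock-down, against 0.02, 0.00 and -0.02 on the control arrays. The dolichol branch had -0.05, -0.04 and -0.03 after DBP5, -0.55, -0.50 and -0.43 after GLE1, and -0.35, -0.30 and -0.27 after IPPK knock-down, against -0.02, -0.02 and 0.04 in control. The sterol branch was thus above control on every DBP5 and GLE1 siRNA array and overlapped it after IPPK knock-down, and the dolichol branch mean, on the brightest probes, was below control on every knock-down array. Its direction depends on the probes and members taken: with every probe on its own the branch median was -0.30 (DBP5), -0.03 (GLE1) and 0.03 (IPPK), and with the mean of the probes it was -0.05 after GLE1. These values are a description of chosen genes, with no test. The dolichol mean rests on few genes: DPAGT1 carries it after GLE1 knock-down (log2 fold change -1.63) and DOLK after IPPK (-0.99), while after DBP5 knock-down the rise of DOLK (0.87) and the fall of NUS1 (-0.83) nearly cancel. With SRD5A3 added, its median turned to 0.11 after DBP5 and 0.03 after IPPK knock-down and was -0.03 after GLE1.

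**Figure D5:**
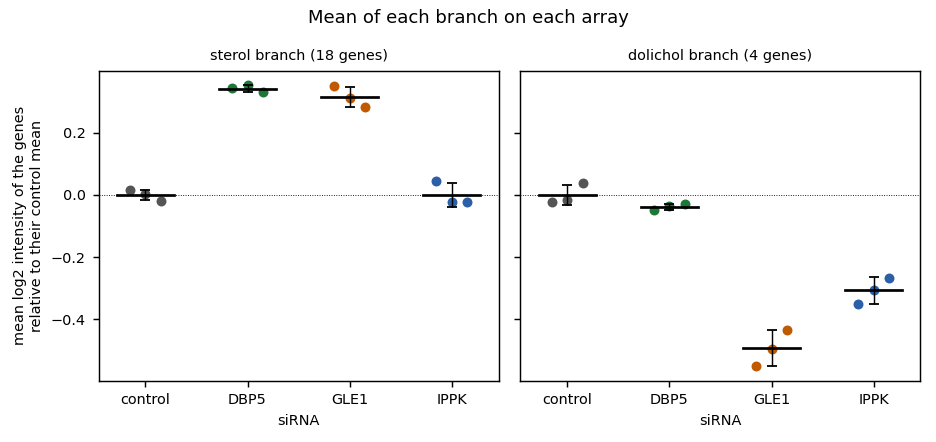
Mean log2 intensity of the 18 sterol branch genes (left) and the 4 dolichol branch genes (right) on each array, relative to the mean of each gene on the control arrays (y axis), by siRNA group (x axis), with points for arrays, long bars for means and whiskers for the SD. The sterol branch lies near 0.3 after DBP5 and GLE1 knock-down and near 0 after IPPK, and the dolichol branch lies lowest after GLE1 knock-down.

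GGPS1 makes geranylgeranyl diphosphate, the other prenyl product of farnesyl diphosphate. It read 5.92, 5.97 and 5.82 in control, 6.69, 6.43 and 6.56 after DBP5, 6.97, 6.85 and 7.01 after GLE1, and 6.17, 6.85 and 6.84 after IPPK knock-down. All knock-down arrays were above control, and IPPK array 1 stood apart from the other two of its group. Ratios were 1.58 ± 0.142, 2.06 ± 0.113 and 1.64 ± 0.411 (SD, n = 3; limma, adjusted p = 0.00467, 0.00018 and 0.00279), and no pair of knock-downs differed past the threshold.

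Other genes of these routes were read from lists written from general knowledge, and all of their genes were tested. Each gene named from them passed limma's test in the comparison given, with an adjusted p of at most 4.9e-04. The counts below stand against 26.8% of all genes higher and 27.5% lower after DBP5, 30.6% and 31.5% in GLE1, and 27.3% and 28.0% in IPPK knock-down. Of 12 genes that process or degrade SREBP and its partners, 4 rose and 5 fell after DBP5, 3 rose and 6 fell after GLE1, and 3 rose and 5 fell after IPPK knock-down. FAF2, which helps draw proteins out of the endoplasmic reticulum for degradation, was at 0.556 ± 0.0383 after DBP5 and 0.338 ± 0.01 after GLE1 knock-down (SD, n = 3). MBTPS1, the protease that makes the first cut in SREBP, had ratios of 1.52 ± 0.0134 (DBP5), 1.66 ± 0.085 (GLE1) and 1.56 ± 0.0674 (IPPK). RNF145, a ubiquitin ligase, was at 0.640 after DBP5 knock-down.

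Fatty acid synthesis, the SREBF1 side, had 9 of 17 genes higher and 4 lower after DBP5, 10 higher and 2 lower after GLE1, and 8 higher and 4 lower after IPPK knock-down, with medians of 0.30, 0.42 and 0.12 on the log2 scale. ACSS2, which makes acetyl-CoA from acetate, was at 2.26 ± 0.308 (SD, n = 3) and MID1IP1, an activator of acetyl-CoA carboxylase, at 0.523 after DBP5 knock-down. GLE1 knock-down left ACACA, an acetyl-CoA carboxylase, at 1.86 ± 0.0573 and FADS1, a desaturase, at 0.559 ± 0.0199. GPAM, which begins glycerolipid synthesis, was at 2.02 and ACSL3, an acyl-CoA synthetase, at 1.77 after IPPK knock-down.

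Sterol transport, storage and efflux had 7 of 23 genes higher and 6 lower after DBP5 knock-down, and 10 higher and 6 lower after each of the others, and the shares after DBP5 knock-down are near those of all genes (26.8% and 27.5%). SCARB2, a lysosomal membrane protein, had ratios of 1.81 ± 0.293 (DBP5), 2.90 ± 0.0984 (GLE1) and 2.64 ± 0.0719 (IPPK; SD, n = 3). LRP8, a receptor for apolipoprotein E and reelin, was at 2.34 ± 0.116 in GLE1 and 2.73 ± 0.138 in IPPK knock-down. NR1H2, the sterol-sensing LXR beta, was at 0.485 ± 0.0532 and ABCG1, a cholesterol exporter, at 0.526 ± 0.00945 after DBP5 knock-down.

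Of 16 genes that use farnesyl and geranylgeranyl groups, 7 rose and 5 fell after DBP5, 4 rose and 6 fell after GLE1, and 5 rose and 4 fell after IPPK knock-down. RCE1, the protease that trims prenylated proteins, was at 0.251 ± 0.0178 after GLE1 and 0.467 ± 0.0174 after IPPK knock-down (SD, n = 3). CHML, an escort of Rab proteins, was at 1.81 after DBP5 and 2.28 after GLE1 knock-down but at 0.631 after IPPK, and RABGGTA, a subunit of the enzyme that prenylates Rab proteins, at 1.64 after DBP5 and 2.05 after IPPK.

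Downstream of dolichol, 26 genes assemble the lipid-linked sugar chain. Of these 9 rose and 11 fell after DBP5, 10 rose and 8 fell after GLE1, and 14 rose and 7 fell after IPPK knock-down. GNPNAT1, an enzyme of UDP-GlcNAc synthesis, was at 2.31 ± 0.0264, 5.07 ± 0.44 and 3.62 ± 0.195 of control after the 3 knock-downs (SD, n = 3). GFPT1, the entry enzyme of that synthesis, was at 0.404 ± 0.0357 after DBP5 knock-down. PMM1, a phosphomannomutase, was at 0.487 after GLE1, and ALG14, which acts directly after DPAGT1, at 2.60 ± 0.199 after IPPK knock-down.

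The oligosaccharyltransferase, which moves the finished chain onto proteins, had 3 of 12 genes higher and 3 lower after DBP5, 5 higher and 3 lower after GLE1, and 6 higher and 1 lower after IPPK knock-down. MAGT1, an oxidoreductase subunit, was at 5.62 ± 1.25, 7.94 ± 0.142 and 6.29 ± 0.441 of control (SD, n = 3). OST4, a small subunit, was at 3.60 ± 0.224, 3.79 ± 0.0933 and 3.33 ± 0.0305. The medians of the 12 genes were -0.02, 0.08 and 0.12 on the log2 scale, so these 2 genes stood well above the rest of their list.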

How the data were processed

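Cytoplasmic RNA was labelled with Cy3 and hybridised to 12 Agilent whole human genome arrays, 3 per siRNA, with the replicate number also marking the slide. The deposited scanner files hold background-subtracted signal intensity per spot, made by the authors with Feature Extraction 10.7.3.1, and the authors' processed table holds log2 values after their LOESS normalization. No column of another sample was present. Here outlier spots (169 to 358 per array) were dropped, spots of a probe were averaged on the log2 scale, arrays were brought together by cyclic loess, and probes were named through the accessions of the RefSeq table (26449 of 34127 probes). The brightest probe stood for a gene, and a gene entered the tests if, for at least 1 siRNA, that probe exceeded background clearly on each of the 3 arrays (20818 genes, of which 18419 did so on all 12). The number of arrays limits the precision.

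limma 3.58.1 in R 4.3.3 fitted 4 group means over all arrays, with Benjamini-Hochberg adjustment over the genes kept in each comparison and a threshold of 0.05. A ratio is the knock-down arrays over the control mean on the linear scale. The code was tested on simulated data. Deviations of arrays with the same number from their group means correlated at 0.318 to 0.513 (18 pairs), so the numbers pair the arrays. Other pairs correlated at -0.285 to -0.0495 (36 pairs), which adds little, since the deviations cancel within each group. The main fit has no term for the slide. The alternatives were other scalings, backgrounds, filters and probe rules, a replicate block, a t-test paired by slide, and leaving out each array. Background correction by normexp (offset 50) used the median spot signal. All 32 genes and, from each other list, the 2 with the largest change per knock-down were named, except 1 that is not reported here. The genes and lists were chosen with earlier results of these data known. Promoters were searched in Python 3.11.15.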

Additional observations from a re-analysis of the deposited data

How the results depend on the processing

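By the number of calls lost, the largest dependence was on the test. By a t-test paired by slide and adjusted over all genes, 3 of the 32 genes were lower and 10 higher after DBP5 knock-down (7 and 19 at an unadjusted p). In that test 6 were higher after IPPK (8 unadjusted), and 4 were higher after GLE1 against DBP5 (9 unadjusted). After DBP5 against IPPK 3 were lower and 10 higher (5 and 20 unadjusted). The share of all genes passing this t-test is not given here. In all, 27 single-gene calls against control were lost. They were MVK, PMVK, MVD, IDI1, LSS, MSMO1, NSDHL, INSIG2, SCAP, SREBF1, SREBF2, NPC1, DPAGT1 and GGPS1 after DBP5 knock-down, IDI1, SC5D, STARD4 and SRD5A3 after GLE1, and MVK, FDFT1, CYP51A1, NSDHL, EBP, INSIG1, SREBF2, SRD5A3 and GGPS1 after IPPK, while HSD17B7 gained a call after GLE1. Over the 9 alternatives that keep the brightest probe and limma or change only the test, 816 of 864 gene values against control kept their direction and call, 40 lost it, 8 gained it and 0 reversed. With the replicate block, FDPS after IPPK and DOLK after GLE1 knock-down gained a call, and it changed no other call of a gene against control. Scaling moved the median of all genes by less than 0.1.

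The choice of probe turned directions. The mean of the probes gave log2 fold changes of 0.30 for INSIG2, 0.13 for SREBF1 and 0.20 for DHDDS after GLE1 knock-down and -0.24 for LSS after IPPK. The dimmer probe gave 0.24, 1.15 and 0.23 for INSIG2 after DBP5, GLE1 and IPPK, 0.11 and 0.31 for SREBF1 after DBP5 and GLE1, 0.42 for DHDDS after GLE1 and -0.89 for LSS after IPPK. The dimmest NUS1 probe gave 0.26 after GLE1 and 0.092 after IPPK. The cause was not tested.

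The branch medians moved as follows. The dolichol branch after DBP5 knock-down (-0.09) was at -0.074 with normexp, -0.30 with every probe and 0.11 with SRD5A3. After GLE1 (-0.24) it was at -0.28 with scaling to the 75th percentile, -0.25 with quantile normalization, -0.25 with normexp, -0.27 with the authors' processed values, -0.053 with the mean of the probes, -0.029 with every probe and -0.029 with SRD5A3. After IPPK (-0.15) it was at -0.083 with the mean of the probes, 0.031 with every probe and 0.031 with SRD5A3. The sterol branch after GLE1 (0.25) was at 0.21 with scaling to the 75th percentile, 0.22 with normexp, 0.20 with the authors' processed values, 0.19 with every probe and 0.17 with INSIG1 and STARD4, and after IPPK (-0.11) at -0.15 with the mean of the probes.

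Leaving out each array in turn, 1110 of 1152 gene values kept their direction and call, 37 lost it, 5 gained it and 0 reversed. The dolichol branch median ranged from -0.11 to -0.067 (DBP5), -0.26 to -0.22 (GLE1) and -0.18 to -0.13 (IPPK), and the sterol branch median from 0.44 to 0.51, 0.24 to 0.27 and -0.11 to -0.10. NUS1 ranged from -0.87 to -0.81, -0.47 to -0.42 and -0.36 to -0.31. The counts of genes lower and higher ranged from 7 to 9 and 19 to 20 after DBP5, 7 to 7 and 12 to 15 after GLE1, and 9 to 12 and 9 to 11 after IPPK.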
